A study of Rattus norvegicus with 12 samples.

Results

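Dexamethasone and LiCl were set against each other in cultured fetal bones, 3 libraries (Dex1 to Dex3) against 3 libraries (Li1 to Li3), the 6 single-drug libraries of a series of 12. The members were chosen by their titles and not by any measured value. Metatarsals, the long bones of the foot, were dissected from Sprague Dawley rat fetuses at embryonic day 19 and cultured for 72 h with 1 µM dexamethasone, with 10 mM LiCl, or in control medium, with ethanol as the vehicle, and 3 libraries with both drugs complete the series. Each library is RNA-seq of a pool of about 20 bones, so cartilage, perichondrium and any attached tissue were read together and n counts pools. The labels call the pools biological replicates but tie no number to an animal. Per the paper, 3 rats were used, each pool came from 1 rat, and bones were spread at random over the treatment groups within an experiment. The groups therefore share source animals. Unless a replicate block is named, the p-values given here come from a fit without pairing and measure the spread between pools. The question this comparison addresses is which genes and processes part the drugs, and which sit at the same level under either of them.

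Dexamethasone is a synthetic glucocorticoid. It enters the cell, binds the glucocorticoid receptor and sends it to the nucleus, where it switches genes on at response elements and holds others down. Lithium inhibits glycogen synthase kinase 3, the kinase that marks β-catenin for destruction, so that β-catenin can act with TCF and LEF factors on the target genes of Wnt signaling. In the growth plate, chondrocytes proliferate, enlarge and lay down the matrix on which bone forms. Glucocorticoids are known to restrain that growth.

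The libraries held 9263078 to 11685463 counts with dexamethasone, 13866588 to 20644093 with LiCl and 10761816 to 21953446 in control, so every dexamethasone library was shallower than every LiCl library. Of 30045 gene symbols, 12602 reached 60 counts in 2 or more libraries of the series and were tested. Of these, 10888 reached 60 counts in at least 2 libraries of both drugs, 782 did so in at least 2 LiCl libraries but in no dexamethasone library, and 32 the reverse. The markers of chondrocytes, the cells of the labelled tissue, were present in all 6 libraries, with the cartilage collagen gene Col2a1 at 24540 to 49730 CPM (reads of a gene scaled to a common library size) and the proteoglycan gene Acan at 4179 to 7686 CPM over the 6 libraries. On the first principal component of the 500 most variable genes (53.4% of the variance) the dexamethasone libraries lay at 12.3 to 14.4 and the LiCl libraries at -11.3 to -10.0, with control at -20.6 to -18.3.

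The drugs parted 481 of 12602 genes (3.82%) and left most at a like level. A gene counts as called where the p of edgeR's quasi-likelihood test, adjusted by Benjamini-Hochberg, was under 0.05 with a fold above 2 or below 0.5. Of the called genes, 273 (2.17%) were higher and 208 (1.65%) lower with dexamethasone than with LiCl. With no fold minimum 2038 genes passed (16.2%), 1128 of them higher (8.95%) and 910 lower (7.22%). These are the shares against which the counts of gene lists are to be read, since list members were counted at an adjusted p under 0.05. At the other end, 8754 genes (69.5%) had a 95% interval of the log2 difference that lay inside 1.5-fold, and these are called here at the same level. Libraries did not overlap between the drugs in 34.3% of genes, with dexamethasone above in 17.7% and below in 16.6%. The median log2 difference over all genes was -0.00268 and the median standard error (SE) 0.12. List members that reached 60 counts in at least 2 libraries of 1 drug and not of the other give no support of their own to a count. Among them were Nr3c2, Slc6a12, Scnn1a, Pthlh, Dlx3, Hapln3, Tap1, Cxcl13, Ackr4, Timp4, A2m, Erbb3 and Ngfr. Zbtb16, Cebpd, Lcn2, Perp, Chrdl2, Col15a1 and Mmp9 were such members too. With all libraries thinned to the depth of the smallest, 374 of 11353 genes were called.

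**Figure D1:**
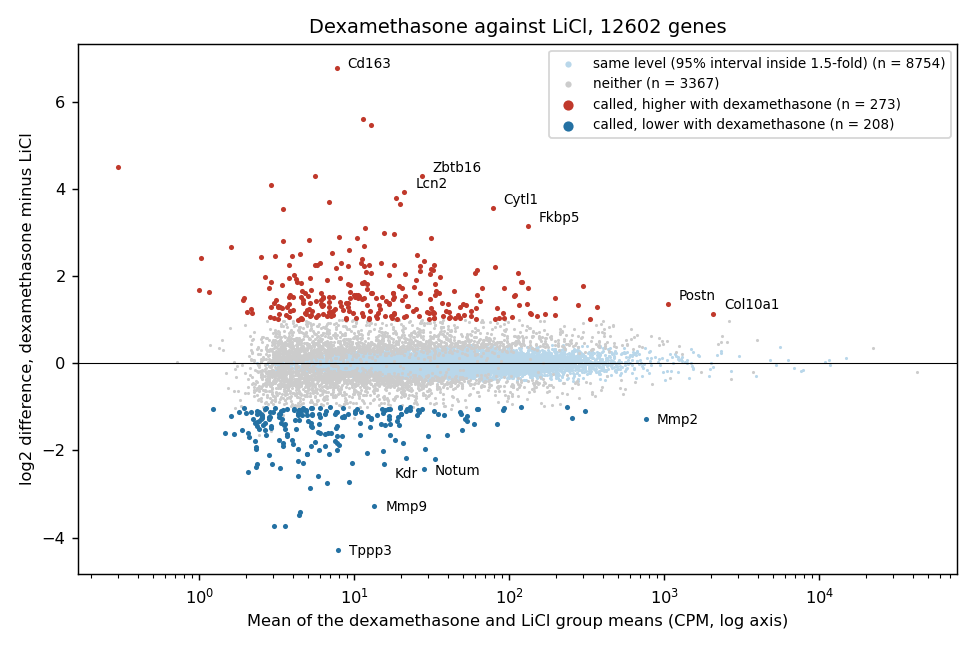
Log2 difference of each gene, dexamethasone minus LiCl, against its level (mean of both group means in CPM, log axis), one point per gene. Red points are the 273 genes called higher with dexamethasone, dark blue points the 208 called lower, light blue points the 8754 genes at the same level. The called genes reach from Cd163 at 6.77 to Tppp3 at -4.28.

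The control libraries are not a side of this comparison, although they share its count filter, scaling and estimate of spread. They show on which side the genes stood without either drug. For 200 of the 273 genes higher with dexamethasone (73.3%), the control mean was nearer to the LiCl mean than to the dexamethasone mean on a log2 scale, and for 73 it was nearer to dexamethasone. For the 208 genes lower with dexamethasone the split was 115 nearer to LiCl (55.3%) and 93 nearer to dexamethasone. The control mean lay between the means of the drugs for 188 of the 273 and 131 of the 208. These counts are a description of the called genes. Set against control on their own, in tests that share the 3 control libraries, 10.9% of genes passed an adjusted p under 0.05 with dexamethasone (5.45% higher, 5.49% lower) and 10.6% with LiCl (4.71% higher, 5.90% lower).

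The 12 genes with the largest rise over LiCl included 2 of leukocytes, Cd163 and Cd101. Cd163, the macrophage scavenger receptor for haemoglobin bound to haptoglobin, stood at 15.4, 17.9 and 12.4 CPM in the dexamethasone libraries and at 0.286, 0.105 and 0.0484 CPM in the LiCl libraries. With only 4, 2 and 1 counts in the LiCl libraries against 149, 213 and 111 with dexamethasone, its ratio was 119 with a counting interval of 57.3 to 297.5. In such bulk samples, fewer cells of a type and less RNA per cell cannot be told apart. Tf, the plasma iron carrier transferrin, was at 18.1, 8.98 and 39.8 CPM with dexamethasone and 0.286, 0.524 and 0.484 CPM with LiCl (log2 difference 5.60, SE 0.75, adjusted p = 1.01e-05). The dexamethasone libraries of Tf differed among themselves more than 4-fold in level, and control was at 2.81 ± 0.488 CPM (SD, n = 3). Cd101, a membrane protein of leukocytes, was at 26.9, 23.2 and 24.99 CPM against 0.214, 0.472 and 0.872 CPM (log2 difference 5.48, SE 0.31, adjusted p = 1.07e-09).

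Zbtb16, the transcription factor PLZF, was at 53.3, 45.6 and 57.2 CPM with dexamethasone and 2.29, 1.94 and 3.54 CPM with LiCl (log2 difference 4.30, SE 0.23, adjusted p = 3.70e-09). Lcn2, the siderophore-binding lipocalin, was at 42.1, 39.6 and 36.6 CPM against 3.14, 2.52 and 2.18 CPM (log2 difference 3.94, SE 0.15, adjusted p = 1.94e-10), and Prodh, the mitochondrial enzyme that begins proline breakdown, at 38.4, 31.3 and 34.5 CPM against 2.07, 2.15 and 3.100 CPM (log2 difference 3.80, SE 0.19, adjusted p = 2.29e-09). Libraries that do not overlap between the drugs were a condition for naming these 12 genes, as for the 12 lowest, and are no result. Cytl1, a small secreted protein made in cartilage, was at 171, 171 and 88.9 CPM with dexamethasone, 12.3, 14.1 and 9.98 CPM with LiCl and 42.8 ± 9.94 CPM in control, so that control lay between the drugs (log2 difference 3.57, SE 0.30, adjusted p = 1.09e-06). Sphkap, an anchor of protein kinase A, was at 5.79, 6.88 and 6.39 CPM with dexamethasone, as in control (6.37 ± 0.509 CPM), but at 0.572, 0.734 and 0.339 CPM with LiCl (log2 difference 3.53, SE 0.28, adjusted p = 1.22e-07). The other genes of this group were Perp, a desmosome protein and p53 target (4.29), Phactr3, a phosphatase and actin regulator (4.09), and the unnamed LOC100362814 and LOC689991 (log2 differences 3.70 and 3.66).

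The 12 largest falls included Notum, described with the Wnt genes, and a pair of tubulin-binding paralogs. Tppp3, a tubulin polymerization-promoting protein, was at 0.621, 0.755 and 0.897 CPM with dexamethasone and 14.8, 12.9 and 16.9 CPM with LiCl (log2 difference -4.28, SE 0.30, adjusted p = 1.09e-08). Its paralog Tppp was at 0.724, 0.168 and 0.672 CPM against 5.503, 6.503 and 7.89 CPM (log2 difference -3.73, SE 0.53, adjusted p = 1.82e-05). Control was at 1.696 ± 0.547 CPM for Tppp3 and 0.838 ± 0.657 CPM for Tppp. Slc6a12, which carries the osmolyte betaine into cells, was at 0.931, 0.923 and 0.336 CPM against 8.93, 7.71 and 7.797 CPM, with 0.716 ± 0.398 CPM in control (log2 difference -3.42, SE 0.36, adjusted p = 1.68e-06). The chemokine gene Cxcl13 was at 1.55, 1.85 and 1.79 CPM against 10.9, 12.95 and 11.1 CPM (log2 difference -2.74, SE 0.25, adjusted p = 1.00e-06, control 2.49 ± 0.568 CPM). Kcnj6, a potassium channel, and Entpd3, which splits nucleotides outside the cell, had log2 differences of -3.47 and -2.72, and the unnamed RGD1311892 of -2.58. In all of these the control mean was nearer to dexamethasone than to LiCl.

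A second set had control nearer to LiCl. Sox7, a transcription factor of vessel-forming cells, was at 0.3104, 0.755 and 0.112 CPM with dexamethasone, 4.93, 5.66 and 6.49 CPM with LiCl and 5.19 ± 0.587 CPM in control (log2 difference -3.73, SE 0.44, adjusted p = 1.93e-06). Esm1, a proteoglycan of sprouting endothelium, was at 0.621, 2.35 and 0.5603 CPM against 7.86, 11.4 and 8.33 CPM, with control at 9.93 ± 3.27 CPM (log2 difference -2.87, SE 0.43, adjusted p = 8.66e-05). Mmp9, the gelatinase by which osteoclasts and vessels open the growth plate, was low with dexamethasone (2.48, 1.68 and 3.59 CPM), intermediate and scattered with LiCl (29.5, 13.4 and 30.1 CPM) and highest in control (47.9 ± 1.95 CPM), with a log2 difference between the drugs of -3.27 (SE 0.41, adjusted p = 1.34e-05). The unnamed RGD1562101 differed by -2.59.

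**Figure D2:**
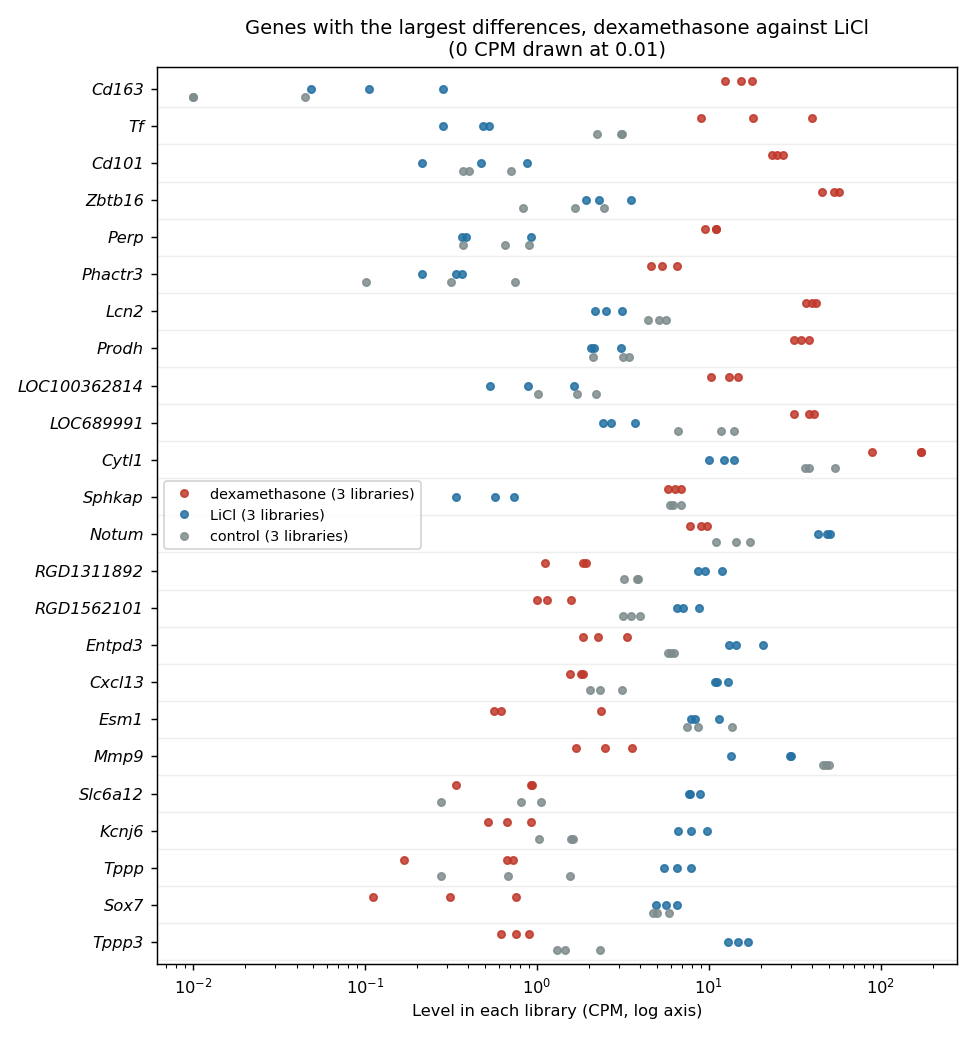
Level in each library of 24 genes, the 12 that most exceed LiCl and the 12 that fall furthest below it (CPM, log axis, a point per library; red dexamethasone, blue LiCl, grey control; 0 drawn at 0.01). The red and blue points of every gene are apart by the rule that chose the genes. The grey points lie with the blue ones for Zbtb16 and Sox7, with the red ones for Sphkap and Slc6a12, and in between for Cytl1.

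Known target genes of the glucocorticoid receptor were higher with dexamethasone. Of 30 listed targets 26 were tested, and 19 were higher and none lower, with a median log2 difference of 1.04. Of the tested members, Zbtb16, Cebpd and Lcn2 had reached 60 counts in at least 2 libraries with dexamethasone but not with LiCl. They give no support of their own to the count. Against control the list had 19 higher and 0 lower with dexamethasone, and 1 higher and 3 lower with LiCl. Fkbp5, a brake on the receptor within its chaperone complex, was at 237, 213 and 263 CPM with dexamethasone against 26.7, 30.2 and 23.5 CPM with LiCl (log2 difference 3.15, SE 0.10, adjusted p = 8.83e-11). Per1, a clock gene that the receptor induces directly, was at 166, 156 and 168 CPM against 47.3, 56.2 and 60.5 CPM (log2 difference 1.58, SE 0.09, adjusted p = 1.18e-08), and Klf15, a transcription factor of amino acid metabolism, at 53.2, 55.2 and 54.4 CPM against 9.93, 11.3 and 12.4 CPM (log2 difference 2.26, SE 0.10, adjusted p = 1.07e-09). The libraries of none of these 3 genes overlapped between the drugs. In control Fkbp5 was at 32.8 ± 1.303 CPM, Per1 at 34.9 ± 1.38 CPM and Klf15 at 11.4 ± 0.761 CPM (SD, n = 3). Tsc22d3, the anti-inflammatory leucine zipper GILZ, differed by 1.49, the kinase gene Sgk1 by 1.28, and Pdk4, which slows glucose oxidation, by 1.15 on the log2 scale. Members that did not part the drugs included Angptl4, a lipase inhibitor (log2 difference -0.19, 95% interval -0.53 to 0.15), and Cdkn1c, a cell cycle inhibitor (0.07, -0.14 to 0.29).

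Of the receptor's own genes and chaperones 13 were tested. Of these 1 was higher (Fkbp5) and 1 lower (2 with the replicate number as a block), and 8 were at the same level. The receptor gene Nr3c1 was at 103, 115 and 113 CPM with dexamethasone and 131, 134 and 124 CPM with LiCl (log2 difference -0.23, 95% interval -0.40 to -0.06, adjusted p = 0.0604). Its highest dexamethasone library lay below its lowest LiCl library, yet the difference missed the threshold and its interval lay inside 1.5-fold. The mineralocorticoid receptor gene Nr3c2 was the lower one, at 2.59, 3.61 and 1.68 CPM against 6.43, 4.93 and 5.28 CPM (log2 difference -1.04, SE 0.28, adjusted p = 0.0164), a call that was lost without dexamethasone replicate 1 or 3 or LiCl replicate 1 (adjusted p of 0.0569, 0.0741 and 0.0576 in turn). With DESeq2, and without control replicate 2, Nr3c1 passed (adjusted p = 0.0442 and 0.0234), and without control replicate 2 the list had 2 higher and 4 lower.

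Promoters of called genes were searched for the glucocorticoid response element, spelled GNACA and TGTNC with 3 bases between them, on both strands, from 250 bases before to 50 bases after each start in RefSeq's GRCr8 rat assembly. It was in 2 of 187 promoters of genes called higher (1.07%) and in none of 142 called lower, against 0.203% of the promoters of genes tested and 0.422% of all in the table. Of the 24 genes with the largest differences, 13 had a promoter in the table, and none of these held it or the TCF/LEF motif described further on. Among the target list, 2 of 22 promoters held it, and among complement genes 1 of 8. Map3k6, a stress kinase gene, at 21.4, 18.5 and 22.5 CPM with dexamethasone against 4.93, 4.25 and 5.52 CPM with LiCl (log2 difference 2.08, SE 0.14, adjusted p = 5.69e-08), and C1qb, a subunit of the first complement component, are shown because their libraries do not overlap between the drugs, a choice made after the values were seen. Capitals mark the element, which begins 181 bases before the start of Map3k6 (chr5:150723995-150724294, + strand) and 173 before that of C1qb (chr5:154407778-154408077, - strand).
Map3k6: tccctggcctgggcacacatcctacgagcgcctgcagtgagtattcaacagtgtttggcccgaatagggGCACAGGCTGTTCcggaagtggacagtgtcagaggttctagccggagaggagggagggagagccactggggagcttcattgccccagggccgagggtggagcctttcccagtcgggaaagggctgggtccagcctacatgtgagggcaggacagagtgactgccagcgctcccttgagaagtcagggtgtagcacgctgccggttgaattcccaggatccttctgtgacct
C1qb: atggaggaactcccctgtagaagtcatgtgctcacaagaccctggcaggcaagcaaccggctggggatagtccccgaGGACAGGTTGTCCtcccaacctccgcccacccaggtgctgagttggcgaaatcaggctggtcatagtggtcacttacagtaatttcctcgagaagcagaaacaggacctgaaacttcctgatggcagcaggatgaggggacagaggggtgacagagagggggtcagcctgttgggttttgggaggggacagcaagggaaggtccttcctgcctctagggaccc
A match is a description of the letters and shows no binding.

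Of 23 listed Wnt feedback and target genes 18 were tested, and 8 were lower and 2 higher with dexamethasone than with LiCl, with a median log2 difference of -0.57. Against control the list had 2 higher and 4 lower with dexamethasone, and 9 higher and 4 lower with LiCl. Nkd2, which binds Dishevelled and dampens the pathway, was at 13.2, 12.3 and 9.75 CPM with dexamethasone and 52.02, 55.1 and 55.99 CPM with LiCl (log2 difference -2.20, SE 0.10, adjusted p = 1.73e-09). Notum, the secreted enzyme that strips the lipid from Wnt proteins, was at 9.73, 7.81 and 8.97 CPM against 48.8, 43.3 and 50.5 CPM (log2 difference -2.43, SE 0.15, adjusted p = 3.18e-08), and Nkd1 at 58.1, 55.3 and 62.5 CPM against 113, 128 and 125 CPM (log2 difference -1.06, SE 0.09, adjusted p = 9.56e-07). Control lay on the dexamethasone side for all of them, with 19.1 ± 1.02, 14.3 ± 3.11 and 71.2 ± 5.48 CPM (SD, n = 3). Axin2, the scaffold that the pathway induces against itself, was at 24.3, 15.5 and 24.4 CPM with dexamethasone and 36.2, 32.6 and 34.00 CPM with LiCl (log2 difference -0.69, SE 0.16, adjusted p = 0.00597), and its libraries did not overlap either. The same direction was found for the surface inhibitor gene Apcdd1 (-0.97), the pathway's transcription factor gene Tcf7 (-1.07), and Wif1, a secreted Wnt inhibitor (-1.05).

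The exceptions were Lgr5 and Myc. Lgr5, a receptor for R-spondins and a marker of stem cells in other tissues, was at 56.7, 51.95 and 47.9 CPM with dexamethasone, 11.8, 12.7 and 10.99 CPM with LiCl and 13.1 ± 2.16 CPM in control (log2 difference 2.14, SE 0.16, adjusted p = 1.72e-07), so the dexamethasone libraries stood apart from both other groups. Myc was at 75.2, 61.9 and 79.9 CPM against 45.4, 47.4 and 48.8 CPM (log2 difference 0.61, SE 0.10, adjusted p = 4.09e-04). Cyclin D1 (Ccnd1), a frequently cited target, was at the same level, at 175 ± 14.95 CPM with dexamethasone and 169 ± 9.497 CPM with LiCl (95% interval -0.13 to 0.23).

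Secreted Wnt antagonists split, with 3 of 9 tested members higher and 2 lower (12 were listed). Frzb, an antagonist made by chondrocytes, was at 224, 152 and 233 CPM with dexamethasone and 58.7, 60.4 and 64.9 CPM with LiCl (log2 difference 1.73, SE 0.15, adjusted p = 1.47e-06), and Sfrp5 at 52.5, 37.9 and 61.6 CPM against 23.3, 21.1 and 26.4 CPM (log2 difference 1.09, SE 0.19, adjusted p = 0.00101). In both the libraries were apart, and control was at 251 ± 33.2 and 49.2 ± 11.2 CPM, nearer to dexamethasone. The lower pair was Notum and Wif1. The genes of the destruction complex, receptors and Dishevelled proteins scarcely differed: 14 of 15 tested were at the same level, and Axin2 was the exception. The lower count was 1, with the replicate block 2, and 2 without control replicate 2 or dexamethasone replicate 3. Gsk3b, the kinase that lithium inhibits, was at 126, 119 and 127 CPM with dexamethasone and 133, 117 and 129 CPM with LiCl (log2 difference -0.03, 95% interval -0.21 to 0.15). Ctnnb1, which encodes β-catenin, was at 862, 869 and 916 CPM against 728, 722 and 723 CPM and passed the test at a small size (log2 difference 0.29, SE 0.07, adjusted p = 0.0115), with control at 841 ± 12.4 CPM. Lrp5, a co-receptor, was likewise inside 1.5-fold (0.30, adjusted p = 0.0291), and its adjusted p was 0.0678 to 0.122 without dexamethasone replicate 1 or 3 or LiCl replicate 1 or 2.

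The TCF/LEF motif, CTTTGAT or CTTTGAA on either strand, was in 4 of 13 promoters of the Wnt target list, against 5.72% of the promoters of genes tested. It was in 11 of 187 promoters of genes called higher (5.88%) and 11 of 142 called lower (7.75%). Axin2 (chr10:94398535-94398834, + strand) and Nkd1 (chr19:34722797-34723096, - strand) are shown as members lower with dexamethasone than with LiCl that hold it. The motif, in capitals, begins 232 and 132 bases before the start of Axin2 and 141 before that of Nkd1.
Axin2: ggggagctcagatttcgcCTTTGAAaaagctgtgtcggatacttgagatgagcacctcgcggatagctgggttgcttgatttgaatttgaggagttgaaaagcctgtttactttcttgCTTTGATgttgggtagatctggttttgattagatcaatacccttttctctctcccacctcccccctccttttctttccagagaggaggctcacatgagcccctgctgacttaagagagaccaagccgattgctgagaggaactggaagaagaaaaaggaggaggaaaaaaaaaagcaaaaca
Nkd1: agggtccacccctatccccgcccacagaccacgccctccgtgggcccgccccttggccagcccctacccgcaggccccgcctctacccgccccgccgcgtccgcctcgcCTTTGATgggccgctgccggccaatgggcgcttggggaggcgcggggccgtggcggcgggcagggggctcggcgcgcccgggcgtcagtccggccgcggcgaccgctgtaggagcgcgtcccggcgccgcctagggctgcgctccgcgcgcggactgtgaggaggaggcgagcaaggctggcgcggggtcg
The other list members with the motif were Tcf7 and Cd44.

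Most tested members of the complement and acute phase lists were higher with dexamethasone. Of 24 listed complement genes 16 were tested, and 11 were higher and none lower, with a median log2 difference of 0.93. Against control the list had 4 higher and 0 lower with dexamethasone, and 0 higher and 6 lower with LiCl. C1qb was at 43.5, 48.2 and 37.1 CPM with dexamethasone and 7.22, 8.601 and 7.07 CPM with LiCl (log2 difference 2.49, SE 0.20, adjusted p = 4.63e-07), and C1qc at 49.8, 49.6 and 42.03 CPM against 8.93, 10.6 and 8.33 CPM (log2 difference 2.34, SE 0.22, adjusted p = 2.52e-06). Cd55, which shields host cells from complement, was at 18.9, 16.95 and 25.7 CPM against 6.79, 7.45 and 7.36 CPM (log2 difference 1.499, SE 0.17, adjusted p = 1.75e-05). All 3 were apart between the drugs, but control lay at the LiCl level for the C1q genes (9.77 ± 3.397 and 12.1 ± 4.92 CPM) and near dexamethasone for Cd55 (15.8 ± 0.683 CPM). The protease gene C1s differed by 0.95. Thinned to equal depth, 8 complement genes passed.

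Of 8 tested acute phase genes (17 listed), 6 were higher and 1 lower. Lcn2 and A2m of this list had reached 60 counts in at least 2 libraries with dexamethasone but not with LiCl. They give no support of their own to the count. Il1r1, a member of the list that encodes the interleukin-1 receptor and not an acute phase protein, was at 102, 102 and 99.3 CPM with dexamethasone and 23.2, 22.3 and 23.2 CPM with LiCl (log2 difference 2.14, SE 0.09, adjusted p = 5.16e-10). Ceruloplasmin (Cp), the copper-carrying ferroxidase, was at 13.7, 13.1 and 16.1 CPM against 3.72, 4.301 and 3.97 CPM (log2 difference 1.83, SE 0.17, adjusted p = 2.31e-06), and A1i3, a protease inhibitor of the macroglobulin family, at 33.9, 23.00 and 32.2 CPM against 8.08, 4.88 and 5.76 CPM (log2 difference 2.26, SE 0.21, adjusted p = 1.81e-06). No library overlapped between the drugs in these genes. Reads of A1i3 and its relative A2m (1.81) may be shared. Haptoglobin (Hp) was the lower member, at 8.02 ± 1.19 CPM against 14.6 ± 2.14 CPM (log2 difference -0.86, SE 0.18, adjusted p = 0.00299).

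Of 19 listed macrophage markers 14 were tested, and 7 were higher and none lower, with a median of 0.80. The C1q genes count in this list and in that of complement. Among the libraries of the drugs, Cd163 reached 60 counts only with dexamethasone. Mrc1, the mannose receptor, was at 47.4, 53.05 and 53.9 CPM with dexamethasone and 14.6, 16.05 and 13.2 CPM with LiCl (log2 difference 1.82, SE 0.20, adjusted p = 1.50e-05), and the scavenger receptor gene Stab1 at 82.1 ± 6.41 CPM against 40.5 ± 4.86 CPM (log2 difference 1.03, SE 0.14, adjusted p = 9.78e-05). The pan-macrophage genes did not pass: Csf1r, the receptor for macrophage growth factor, was at 20.95 ± 3.39 CPM against 15.6 ± 0.635 CPM (95% interval of the log2 difference 0.07 to 0.79, adjusted p = 0.0975, 0.0441 without control replicate 1 and 0.0341 from the 6 drug libraries alone), the lysosomal gene Cd68 at 17.2 ± 2.24 against 15.3 ± 1.32 CPM (-0.07 to 0.42), and the leukocyte gene Ptprc at 3.599 ± 1.096 against 4.83 ± 0.5296 CPM (-0.93 to 0.08). The summed level of all listed markers was 325.6 to 370.4 CPM with dexamethasone, 142.9 to 146.7 with LiCl and 153.8 to 231.8 in control. Marco had 0 counts in all 6 libraries and Timd4 in the LiCl libraries. The part of these markers in the complement result was not tested.

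Endothelial markers were lower with dexamethasone than with LiCl. Of 24 listed, 21 were tested, and 14 were lower and none higher, with a median log2 difference of -0.90. Against control the list had 17 lower with dexamethasone and 2 lower with LiCl. Kdr, the main receptor through which VEGF acts on vessels, was at 6.31, 5.37 and 4.03 CPM with dexamethasone and 22.9, 27.6 and 27.1 CPM with LiCl (log2 difference -2.30, SE 0.17, adjusted p = 1.47e-07). Cd93, an endothelial surface protein, was at 12.3, 12.3 and 10.2 CPM against 43.4, 47.4 and 45.2 CPM (log2 difference -1.96, SE 0.13, adjusted p = 6.90e-08), and Cdh5, the cadherin of endothelial junctions, at 22.8, 20.98 and 25.2 CPM against 55.96, 50.9 and 50.8 CPM (log2 difference -1.20, SE 0.09, adjusted p = 3.36e-07). The libraries of these genes were apart and control sat with LiCl (30.8 ± 3.76, 44.03 ± 3.902 and 55.4 ± 1.303 CPM, SD, n = 3). Not all markers followed: the transcription factor gene Erg was at 58.3 ± 2.05 against 55.9 ± 2.95 CPM (95% interval -0.12 to 0.23) and Clec14a at 11.9 ± 1.02 against 11.8 ± 0.558 CPM (-0.34 to 0.34), both at the same level. The summed level of all 24 was 227.3 to 240.7 CPM with dexamethasone, 389.0 to 438.7 with LiCl and 436.2 to 501.3 in control. Of the 21 tested markers 6 (Flt1, Esam, Sox7, Sox18, Mmrn2 and Rasip1) had reached 60 counts in at least 2 libraries with LiCl but not with dexamethasone. These 6 give no support of their own to the count. Robo4 had 0 counts in the dexamethasone libraries.

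Of 12 tested Notch genes 5 were lower and 1 higher. Of the lower 5, Dll4 and Mfng had reached 60 counts in at least 2 libraries with LiCl but not with dexamethasone, and they give no support of their own. Dll4, the Notch ligand of endothelial tip cells, was at 2.28, 3.27 and 1.46 CPM with dexamethasone and 8.65, 9.96 and 9.98 CPM with LiCl (log2 difference -1.99, SE 0.26, adjusted p = 3.65e-05), and Notch4 at 11.8, 11.2 and 9.75 CPM against 15.3, 15.7 and 17.9 CPM (log2 difference -0.58, SE 0.16, adjusted p = 0.0184), the Notch4 call being lost without dexamethasone replicate 3 or LiCl replicate 3 (adjusted p = 0.0746 and 0.0867). Both pairs of groups were apart. The count of lower members was 2 at thinned depth, 1 without LiCl replicate 3, 2 without dexamethasone replicate 1 or LiCl replicate 2 and 3 without dexamethasone replicate 2 or 3. The higher count was 0 without control replicate 1, dexamethasone replicate 1 or 3, LiCl replicate 1 or 2 or both-drug replicate 3. Notch1 and Rbpj, the receptor and its nuclear partner, were at the same level (95% intervals -0.21 to 0.37 and -0.08 to 0.28). The endothelial sums above moved in the same direction as Dll4 and Notch4, and their part in it was not tested.

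Of 11 listed osteoclast markers only 5 were tested. Mmp9 and Acp5, the tartrate-resistant acid phosphatase, were lower with dexamethasone (Acp5 at 5.79, 4.197 and 7.96 CPM against 10.4, 8.23 and 14.96 CPM, log2 difference -0.93, SE 0.25, adjusted p = 0.01602), although the Acp5 call was lost without dexamethasone replicate 1 or 2 or LiCl replicate 3 (adjusted p = 0.0546, 0.0783 and 0.103). Both had reached 60 counts in at least 2 libraries with LiCl but not with dexamethasone, and their count gives no support of its own. Itgb3, the β3 integrin, was higher (log2 difference 1.03, SE 0.18, adjusted p = 7.26e-04), and the collagenolytic protease gene Ctsk was at the same level (95% interval -0.07 to 0.29). The fusion gene Dcstamp had 0 counts in all 6 libraries, and the summed level of the list was 175.9 to 209.2 CPM with dexamethasone, 194.2 to 237.2 with LiCl and 282.3 to 295.5 in control.

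Skeletal muscle markers moved in both directions. Of 27 listed, 15 were tested, and 7 were lower and 5 higher with dexamethasone than with LiCl. All 7 that were lower had reached 60 counts in at least 2 LiCl libraries but not in 2 dexamethasone libraries, so their count gives no support of its own. Acta1, skeletal actin, was at 1.35, 1.68 and 1.46 CPM with dexamethasone and 8.86, 5.87 and 6.78 CPM with LiCl (log2 difference -2.24, SE 0.33, adjusted p = 9.34e-05), and the myosin light chain gene Myl1 at 0.724, 1.09 and 0.448 CPM against 3.93, 3.57 and 4.31 CPM (log2 difference -2.32, SE 0.31, adjusted p = 2.30e-05). Ryr1, the calcium release channel, and Srl, a calcium-binding protein of its reticulum, had log2 differences of -1.66 and -2.28. Against these, the slow troponin gene Tnni1 was at 16.6, 26.02 and 12.3 CPM with dexamethasone and 2.86, 3.67 and 4.601 CPM with LiCl (log2 difference 2.29, SE 0.27, adjusted p = 1.70e-05) and the Z-disc gene Ldb3 at 14.3, 16.2 and 13.9 CPM against 5.36, 5.09 and 4.601 CPM (log2 difference 1.57, SE 0.14, adjusted p = 1.72e-06). None of these libraries overlapped between the drugs. Summed over the list the groups did overlap, with 118.1 to 168.9 CPM with dexamethasone, 143.4 to 172.4 with LiCl and 92.3 to 95.3 in control. The satellite cell marker Pax7 had 0 counts in all 6 libraries and Myod1 in the dexamethasone libraries.

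Among other cell type markers, 4 of 6 tested epidermis genes were higher (21 listed). All of these had reached 60 counts in at least 2 libraries with dexamethasone but not with LiCl, so their count gives no support of its own. Ppl, the desmosome-linked periplakin, was at 19.9, 16.5 and 18.5 CPM against 1.07, 3.46 and 2.71 CPM (log2 difference 2.87, SE 0.26, adjusted p = 1.41e-06), and Perp at 11.1, 9.48 and 10.98 CPM against 0.929, 0.367 and 0.387 CPM (log2 difference 4.29, SE 0.33, adjusted p = 8.48e-08). The keratin gene Krt14 had 0 counts in the dexamethasone libraries, Krt5 in the LiCl libraries and the cornified envelope gene Ivl in both. Of 6 adipocyte markers tested (14 listed) 3 were higher. Fabp4, the fatty acid carrier of adipocytes and macrophages, was at 30.2, 41.5 and 24.1 CPM against 2.86, 5.61 and 3.73 CPM, with control at 19.1 ± 5.43 CPM (log2 difference 2.96, SE 0.29, adjusted p = 2.52e-06). Adipoq, the adipokine, had 1, 14 and 4 counts with dexamethasone and 1 count in all with LiCl (ratio 33.45, counting interval 5.318 to 1390.0), against 48 to 111 counts in the control libraries. Of its 19 counts with dexamethasone 14 came from replicate 2, and the call was lost without dexamethasone replicate 2, LiCl replicate 2 or LiCl replicate 3 (adjusted p = 0.186, 0.0764 and 0.0896). Lpl, the lipase, was at the same level (95% interval -0.50 to 0.13). Summed over the list, epidermis markers were at 77.6 to 80.96 CPM with dexamethasone, 36.99 to 40.06 with LiCl and 41.2 to 48.8 in control, and adipocyte markers at 58.6 to 71.2 CPM with dexamethasone, 28.8 to 34.3 with LiCl and 62.5 to 92.97 in control. Lep and Adig had 0 counts in all 6 libraries. The part of these markers in other results was not tested.

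Counts were smaller in the remaining marker lists. Of 10 smooth muscle and pericyte markers 4 were higher and 1 lower, the lower being Acta2, smooth muscle actin (log2 difference -1.17, SE 0.15, adjusted p = 5.78e-05), and the higher count was 2 without control replicate 1 or dexamethasone replicate 1 or LiCl replicate 1 or 2 or both-drug replicate 3. Of 12 tendon and perichondrium markers 1 was higher and 3 lower (lower count 1 without dexamethasone replicate 3 or LiCl replicate 2). The higher one was Postn, which encodes the matrix protein periostin, at 1669, 1532 and 1335 CPM with dexamethasone against 608, 586 and 561 CPM with LiCl and 589.8 ± 127 CPM in control (log2 difference 1.37, SE 0.14, adjusted p = 8.44e-06). Of 5 tested nerve and Schwann cell markers 1 was higher and 1 lower, and of 2 erythroid markers none passed.

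**Figure D3:**
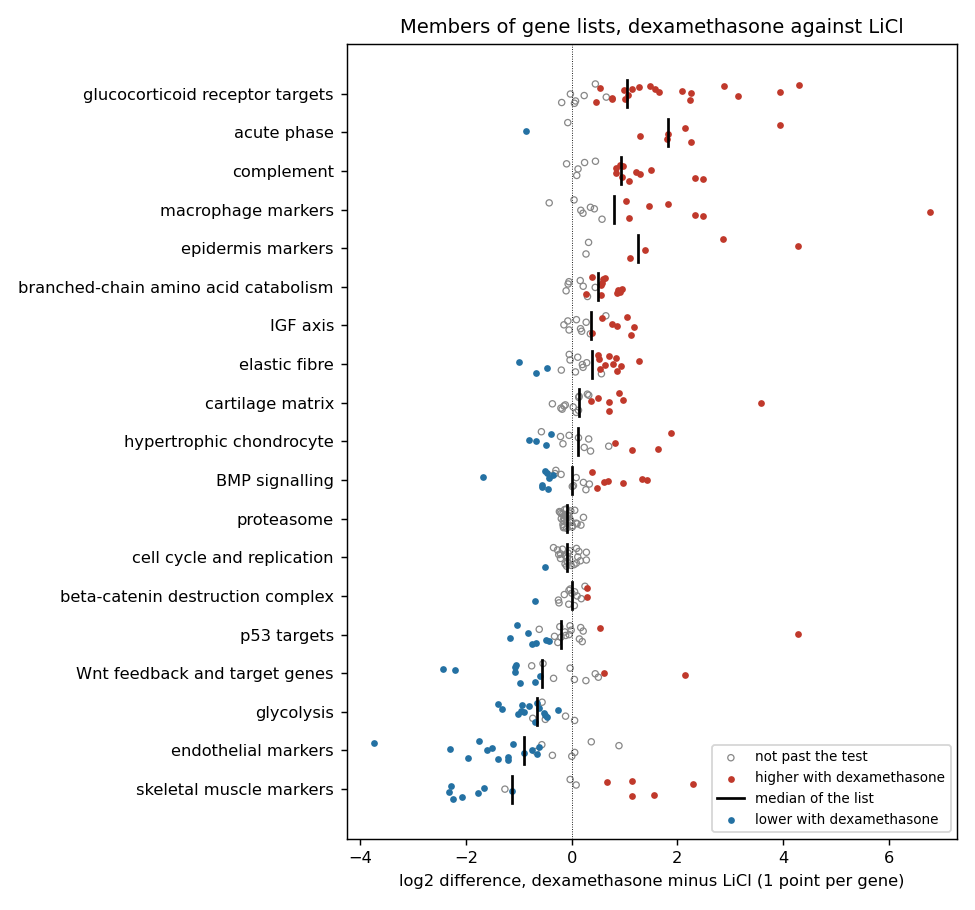
Log2 difference, dexamethasone minus LiCl, of each tested member of 19 gene lists (a point per gene; red and blue points passed an adjusted p under 0.05, open points did not; the bar is the list's median). Glucocorticoid receptor targets lie mostly right of 0 (median 1.04), Wnt targets, glycolysis and endothelial markers mostly left (medians -0.57, -0.66 and -0.90), and the proteasome around it.

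Cartilage genes differed in part. Of 21 listed cartilage matrix genes 19 were tested, and 7 were higher with dexamethasone than with LiCl and none lower, with a median of 0.14. The matrilin gene Matn1 was at 3669.6, 2644 and 4019 CPM with dexamethasone and 1823, 1625 and 1845 CPM with LiCl (log2 difference 0.97, SE 0.15, adjusted p = 4.22e-04), Ucma, a γ-carboxylated protein of resting and early chondrocytes, at 479, 577 and 473 CPM against 269.8, 306 and 244 CPM (log2 difference 0.90, SE 0.12, adjusted p = 8.82e-05), and Epyc, a small proteoglycan of the growth plate, at 477, 517 and 489.9 CPM against 299, 322 and 285 CPM (log2 difference 0.71, SE 0.08, adjusted p = 1.61e-05). In these the groups did not overlap, and control lay near dexamethasone (2981 ± 417, 453 ± 60.6 and 512 ± 14.7 CPM). The main fibril genes did not pass the test. Col9a1 and Col11a1 were at the same level (95% intervals -0.19 to 0.25 and -0.09 to 0.35), while for Col2a1, at 48109.6, 24541 and 47391 CPM against 49730.5, 40108 and 48297 CPM, the interval was too wide to say so (-0.68 to 0.27). The master regulator Sox9 was at 374 ± 81.4 against 304 ± 30.1 CPM (-0.01 to 0.61) and passed without dexamethasone replicate 2 (adjusted p = 0.0168).

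Of 17 tested hypertrophic chondrocyte genes, 4 were higher and 4 lower. Col10a1, the collagen of hypertrophic chondrocytes, was at 3634, 2163 and 2727 CPM with dexamethasone and 1293, 1412 and 1180.4 CPM with LiCl, and control at 2631 ± 235 CPM was on the dexamethasone side (log2 difference 1.13, SE 0.15, adjusted p = 7.29e-05). Spp1, osteopontin, was at 203, 185 and 176 CPM against 60.6, 44.2 and 49.8 CPM (log2 difference 1.87, SE 0.13, adjusted p = 1.22e-07), and the collagenase gene Mmp13 at 46.04, 31.2 and 48.1 CPM against 27.7, 20.9 and 22.6 CPM (log2 difference 0.82, SE 0.16, adjusted p = 0.00258). All of these libraries were apart. In the other direction Phospho1, a phosphatase of mineralizing vesicles, was at 82.98, 51.8 and 78.3 CPM against 119.6, 123 and 128 CPM (log2 difference -0.80, SE 0.14, adjusted p = 7.73e-04). The higher count was 7 without dexamethasone replicate 2, and the lower count 2 without LiCl replicate 1 or 2 or 3. Of 13 osteoblast genes 1 was higher (Spp1) and 2 lower, among them the homeobox gene Dlx3 at 4.35, 2.18 and 2.35 CPM against 9.004, 9.02 and 8.91 CPM (log2 difference -1.61, SE 0.25, adjusted p = 2.15e-04), and of 9 articular and synovial genes 2 were higher and 2 lower. The lower count of osteoblast genes was 1 without dexamethasone replicate 2 or LiCl replicate 1 or 3, and that of articular genes 0 without dexamethasone replicate 2 or LiCl replicate 3 and 1 without dexamethasone replicate 1.

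Within the IGF axis, which drives longitudinal growth, 7 of 16 tested genes were higher with dexamethasone and none lower, with a median of 0.37. Ghr, the growth hormone receptor, was at 222, 256 and 223 CPM with dexamethasone and 99.3, 113 and 109.7 CPM with LiCl (log2 difference 1.12, SE 0.08, adjusted p = 2.31e-07). The binding protein genes Igfbp3 and Igfbp2 were at 159, 179 and 161 CPM and 42.3, 38.4 and 42.6 CPM with dexamethasone against 90.4, 97.2 and 89.1 CPM and 14.6, 20.4 and 19.03 CPM with LiCl (log2 differences 0.85 and 1.18). Libraries of these genes were apart. Igf1 itself differed by 0.39 (SE 0.10, adjusted p = 0.0108, 0.0602 without LiCl replicate 1), while the ligand gene Igf2 and the receptor gene Igf1r were at the same level (95% intervals -0.27 to 0.18 and -0.11 to 0.49).

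Among BMP genes 7 of 25 tested were higher and 8 lower. The lower ones held ligands and a secreted inhibitor: Grem1, gremlin, was at 15.4, 13.8 and 13.3 CPM with dexamethasone and 57.96, 38.4 and 39.9 CPM with LiCl (log2 difference -1.67, SE 0.17, adjusted p = 5.01e-06), Bmp4 differed by -0.56, Bmp7 by -0.56 and Bmp2 by -0.44. The higher ones held the receptor gene Bmpr1b (0.97), the ligand gene Gdf10 (1.34) and the inhibitor genes Chrd, Chrdl1 and Chrdl2 (0.62, 0.69 and 1.43). The lower count was 5 without dexamethasone replicate 2 or LiCl replicate 3. Of 16 FGF genes 5 were higher and 3 lower. Fgf2 was at 4.66, 6.63 and 5.38 CPM against 2.22, 2.15 and 1.55 CPM (log2 difference 1.51, SE 0.22, adjusted p = 1.89e-04). Fgf2 passed the count filter only through dexamethasone replicate 2 and libraries with both drugs. It gives no support of its own to the count. The receptor gene Fgfr2 was higher by 0.54, and Spry4, a feedback inhibitor, was lower (-0.72). Of 14 Hedgehog genes 10 were at the same level, among them the targets Gli1 and Ptch1 (95% intervals -0.19 to 0.13 and -0.20 to 0.37). There 4 were higher and 2 lower, the higher count being 1 without dexamethasone replicate 1 or LiCl replicate 2 and 2 without dexamethasone replicate 3 or LiCl replicate 1 or 3, and the lower 0 without dexamethasone replicate 2 or 3 or LiCl replicate 3 and 1 without control replicate 3 or LiCl replicate 1 or 2 or both-drug replicate 1.

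Of 22 tested elastic fibre genes 10 were higher and 3 lower with dexamethasone than with LiCl, with a median of 0.39. Eln, elastin, was at 601, 586 and 617 CPM with dexamethasone and 278, 371 and 346 CPM with LiCl (log2 difference 0.86, SE 0.13, adjusted p = 2.74e-04), and Fbln5, a fibulin that places elastin on microfibrils, at 92.1, 80.1 and 88.6 CPM against 42.1, 47.7 and 45.7 CPM (log2 difference 0.94, SE 0.11, adjusted p = 1.34e-05). Loxl3, a cross-linking oxidase, was at 548, 451 and 571 CPM against 209.7, 215 and 220.0 CPM (log2 difference 1.28, SE 0.11, adjusted p = 1.46e-06). The groups were apart, with control at 649.5 ± 133, 93.6 ± 14.3 and 265 ± 37.5 CPM, by dexamethasone for Eln and Fbln5 and by LiCl for Loxl3. Its relative Loxl2 was lower (log2 difference -1.004, SE 0.14, adjusted p = 1.41e-04), as were Efemp1 (-0.66) and Fbln1 (-0.47).

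Of 28 other collagens 8 were higher and 4 lower, and 15 were at the same level. Col15a1 and Col17a1, collagens of basement membrane zones, were lower (-1.67 and -1.23), and Col4a5 and Col6a1 higher (0.83 and 0.48). The higher count was 3 without LiCl replicate 1, 4 without dexamethasone replicate 1 or 3 and 5 without LiCl replicate 2. Among 29 matrix proteases and inhibitors, 9 were higher and 5 lower. Mmp2, a gelatinase, was at 491, 446 and 400.3 CPM with dexamethasone and 1161, 1057 and 1015 CPM with LiCl (log2 difference -1.27, SE 0.10, adjusted p = 3.41e-07), Mmp3, stromelysin, at 32.8, 25.1 and 32.4 CPM against 10.1, 9.07 and 7.36 CPM (log2 difference 1.77, SE 0.17, adjusted p = 2.65e-06), and Timp4, a metalloprotease inhibitor, at 27.8, 25.3 and 29.1 CPM against 3.14, 2.99 and 4.17 CPM (log2 difference 2.98, SE 0.15, adjusted p = 2.29e-09). For Mmp2 control lay between the drugs (718 ± 60.96 CPM), for Mmp3 above both (43.8 ± 6.35 CPM) and for Timp4 near LiCl (5.61 ± 0.519 CPM). Of 9 small leucine-rich proteoglycans 3 were higher and 2 lower, and of 11 hyaluronan genes 1 and 2, with Cemip, which breaks hyaluronan down, lower (log2 difference -1.10, SE 0.24, adjusted p = 0.00437). The lower counts were 1 without dexamethasone replicate 1 or 2 or LiCl replicate 3 for the proteoglycans, and 1 without LiCl replicate 1 or 2 or 3 for hyaluronan genes.

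Glycolysis genes were lower with dexamethasone than with LiCl, with wide spread between the libraries. Of 19 tested (22 listed) 14 were lower and none higher, with a median of -0.66. Pfkp, a phosphofructokinase, was at 30.8, 40.6 and 19.5 CPM with dexamethasone and 65.9, 72.95 and 90.95 CPM with LiCl (log2 difference -1.33, SE 0.19, adjusted p = 1.32e-04), and Pfkl at 141, 143 and 102 CPM against 231, 236 and 285 CPM (log2 difference -0.96, SE 0.12, adjusted p = 4.06e-05). Ldha, lactate dehydrogenase, was at 138, 221 and 106 CPM against 241, 346 and 352 CPM (log2 difference -1.01, SE 0.22, adjusted p = 0.00523), and Slc16a3, which exports lactate, at 43.1, 72.9 and 20.6 CPM against 79.7, 134 and 148 CPM (log2 difference -1.39, SE 0.31, adjusted p = 0.00636). The libraries of these genes were apart, dexamethasone replicate 2 being the nearest to LiCl in each. Control means lay between the drugs for Pfkl, Ldha and Slc16a3 (184 ± 13.4, 217 ± 40.1 and 69.4 ± 12.04 CPM) and at the dexamethasone level for Pfkp (29.6 ± 0.281 CPM). The count of lower genes was 7 without dexamethasone replicate 3 or LiCl replicate 2 and 8 without LiCl replicate 3. Gapdh and Tpi1, at 16.8 ± 7.27 and 5.34 ± 1.73 CPM with dexamethasone and 28.2 ± 6.295 and 7.93 ± 1.55 CPM with LiCl, did not pass (adjusted p = 0.0508 and 0.174). Gapdh passed, lower, with the replicate block (0.00455), DESeq2 (0.019), filterByExpr (0.0448), no count filter (2.07e-04) and thinned counts (0.0432). It also passed without control replicate 2, dexamethasone replicate 2 or LiCl replicate 1 (adjusted p = 0.037, 0.00219 and 0.0261). Like other genes of this pathway, Gapdh and Tpi1 have near-identical pseudogene copies that could take or lose reads.

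HIF targets, several of which are glycolysis genes, were 3 lower and 2 higher of 18 tested, with a median of -0.32 and 2 at the same level. With the replicate number as a block the lower count was 6, and it was 1 without dexamethasone replicate 1 or 3 or LiCl replicate 2 or 3, 5 without LiCl replicate 1 and 9 without dexamethasone replicate 2. The higher count was 0 without dexamethasone replicate 1 or 2 or LiCl replicate 1, and 1 without LiCl replicate 2 or 3 or both-drug replicate 1. Vegfa, the vascular growth factor, was at 359, 669 and 227 CPM with dexamethasone and 418, 702 and 746 CPM with LiCl, groups that overlap (log2 difference -0.57, 95% interval -1.23 to 0.09). Its adjusted p was 0.247, 0.00847 with no count filter and 0.012 without dexamethasone replicate 2.

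**Figure D4:**
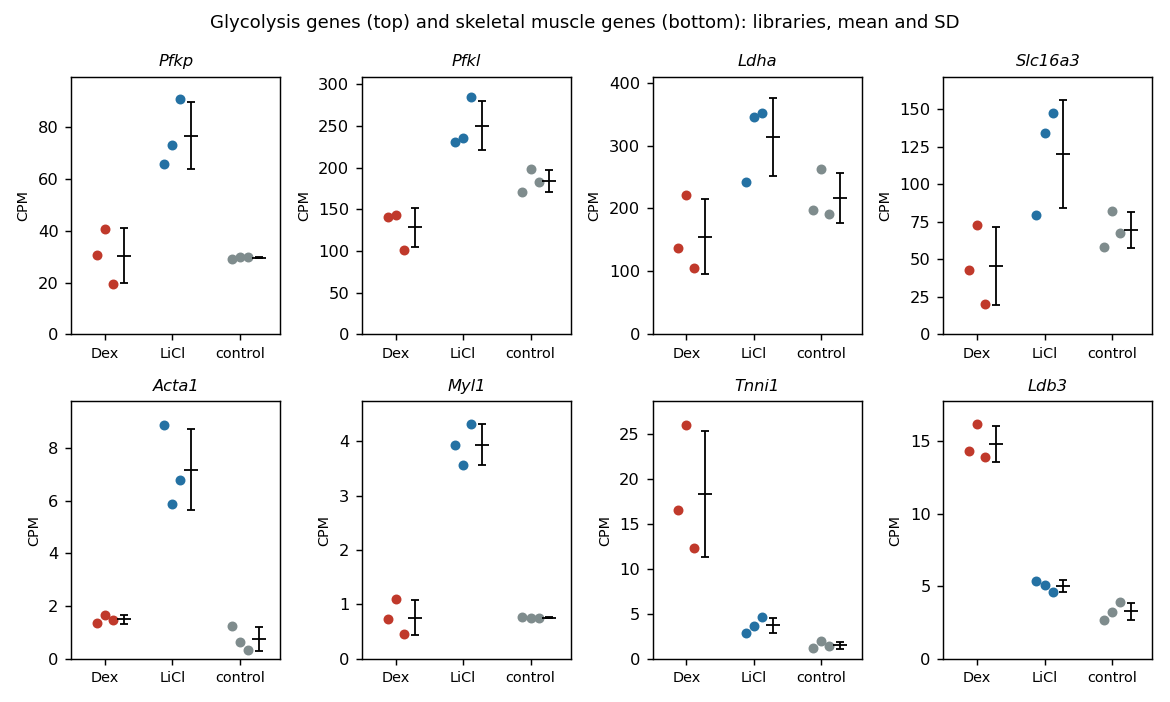
Levels of 4 glycolysis genes (top) and 4 skeletal muscle genes (bottom) in CPM, with a point per library and the mean with its SD (n = 3) for dexamethasone (Dex), LiCl and control; axes start at 0. Dexamethasone points lie below LiCl points for the glycolysis genes, Acta1 and Myl1, and above them for Tnni1 and Ldb3.

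Genes that break down branched-chain amino acids went in the opposite direction. Of 18 tested genes 11 were higher with dexamethasone and none lower, with a median of 0.50, and none passed the 2-fold limit. Bckdha, a subunit of the dehydrogenase that commits these acids to oxidation, was at 31.6, 29.6 and 28.2 CPM with dexamethasone and 16.1, 14.4 and 15.8 CPM with LiCl (log2 difference 0.95, SE 0.10, adjusted p = 5.45e-06), Bcat2, the mitochondrial transaminase, at 33.6, 32.3 and 43.3 CPM against 19.9, 17.6 and 21.8 CPM (log2 difference 0.88, SE 0.13, adjusted p = 2.02e-04), and Aldh6a1, which acts in valine breakdown, at 109, 125 and 102 CPM against 63.9, 60.4 and 62.04 CPM (log2 difference 0.86, SE 0.08, adjusted p = 3.63e-06). Libraries did not overlap in any of them. Control was by dexamethasone for Bckdha (28.6 ± 2.705 CPM) and by LiCl for Aldh6a1 (64.8 ± 3.72 CPM).

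Among ATF4 targets of the amino acid response 22 were tested, and 8 were higher and none lower, with a median of 0.30. Cebpb, a transcription factor, was at 22.6, 14.4 and 21.5 CPM against 5.86, 7.29 and 5.91 CPM (log2 difference 1.61, SE 0.17, adjusted p = 6.83e-06), and the folate enzyme gene Mthfd2 at 92.1, 85.9 and 98.5 CPM against 63.4, 68.97 and 62.6 CPM (log2 difference 0.50, SE 0.08, adjusted p = 3.90e-04), with Atf4 at the same level (95% interval -0.10 to 0.33). This count was 3 without dexamethasone replicate 3, 4 without LiCl replicate 3 and 5 without dexamethasone replicate 1 or LiCl replicate 1. Of 23 cholesterol synthesis genes 16 were at the same level, with 5 lower and 1 higher (lower count 2 without LiCl replicate 1 or 3), of 10 fatty acid synthesis genes 9 were, with 1 lower, and of 17 fatty acid oxidation genes 12, with 3 higher. With the replicate block 2 cholesterol synthesis genes were higher, 5 of fatty acid synthesis lower and 5 of fatty acid oxidation higher. The higher count of cholesterol synthesis genes was 0 without dexamethasone replicate 1 or 3 or LiCl replicate 1 or 2. It was 2 without control replicate 2 or 3, dexamethasone replicate 2 or both-drug replicate 2 or 3.

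Target genes of p53 were lower in part with dexamethasone. Of 23 tested, 7 were lower and 2 higher. Perp, a higher member, had met the count filter in the dexamethasone libraries but not in the LiCl libraries. For the tested members Eda2r, Plk3 and Rrm2b the reverse held. These members give no support of their own to the counts. Zmat3, an RNA-binding regulator, was at 40.6, 40.6 and 39.4 CPM with dexamethasone and 84.4, 86.1 and 77.6 CPM with LiCl, with control at 38.2 ± 2.09 CPM (log2 difference -1.04, SE 0.10, adjusted p = 3.81e-06). Bax, the pro-apoptotic effector, was at 25.6, 23.8 and 33.7 CPM against 43.7, 43.5 and 44.2 CPM (log2 difference -0.67, SE 0.12, adjusted p = 9.57e-04), and Phlda3 at 26.9, 22.4 and 31.3 CPM against 47.3, 50.7 and 44.4 CPM (log2 difference -0.83, SE 0.12, adjusted p = 1.10e-04). In each the LiCl libraries were all above the dexamethasone libraries, and control means were nearer to dexamethasone (Bax 30.7 ± 3.93 CPM, Phlda3 33.6 ± 3.39 CPM). Mdm2, the main feedback gene of p53, was at the same level (95% interval -0.25 to 0.16). Of 12 BCL2 family genes 3 were higher and 1 lower (lower count 3 without dexamethasone replicate 3), and the survival gene Bcl2 was at 24.8, 27.3 and 28.5 CPM against 21.4, 23.3 and 23.6 CPM (log2 difference 0.23, 95% interval -0.12 to 0.59, adjusted p = 0.3898). Its lowest dexamethasone library lay above its highest LiCl library, but the difference did not pass.

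Clock genes split, with 2 of 16 higher and 4 lower. Per1 and Nfil3, a repressor, were higher (1.58 and 1.39), while Per3 was at 43.5, 45.6 and 34.6 CPM with dexamethasone and 76.5, 92.3 and 86.8 CPM with LiCl (log2 difference -1.04, SE 0.13, adjusted p = 3.65e-05). The lower count was 2 without dexamethasone replicate 3 or LiCl replicate 2. Clock and Arntl, the positive arm, were at the same level (95% intervals -0.23 to 0.36 and -0.18 to 0.29). Of 14 sodium and potassium transport genes 4 were higher and 2 lower. Atp1b1, a β subunit of the sodium pump, was at 202, 167 and 190.3 CPM against 55.6, 47.9 and 50.1 CPM (log2 difference 1.87, SE 0.09, adjusted p = 4.88e-09), and its libraries did not overlap. The lower count was 0 without dexamethasone replicate 1 or LiCl replicate 1 and 1 without dexamethasone replicate 2 or 3 or LiCl replicate 2 or 3. Of 12 inositol and osmolyte genes 1 was higher and 2 lower, led by Slc6a12. The inositol monophosphatase gene Impa1, whose enzyme lithium inhibits, was at 45.8, 53.5 and 52.8 CPM against 54.4, 54.5 and 48.5 CPM (95% interval -0.24 to 0.14).

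Of 16 NFE2L2 and AhR targets 1 was higher (2 with the replicate block) and 4 lower (lower count 1 without dexamethasone replicate 3 or LiCl replicate 1 and 2 without dexamethasone replicate 2). Of 10 chemokine and cytokine genes 4 were higher and 1 lower, and of 7 interferon response genes 2 were lower, a count of 1 without dexamethasone replicate 1 or 3 or LiCl replicate 2 or 3. Ackr4, a scavenging chemokine receptor, was at 7.97, 6.71 and 6.95 CPM with dexamethasone and 2.86, 2.57 and 1.695 CPM with LiCl (log2 difference 1.62, SE 0.24, adjusted p = 1.71e-04). Its libraries did not overlap.

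The basic machinery of the cells was at a like level under either drug. All 31 proteasome genes lay inside 1.5-fold and none passed edgeR's test. Psmd2 passed with DESeq2, with the replicate block and without dexamethasone replicate 3 (adjusted p = 0.0409, 0.0397 and 0.0137), and Psmc4 with the block and without control replicate 2 (adjusted p = 0.0493 and 0.0499). Inside 1.5-fold were also 24 of 26 cell cycle and replication genes, with 1 lower, 26 of 28 genes of respiratory complex I, with 1 lower, and all 5 tested genes of the metal response. That last list held 11 genes, and those not tested leave the level of most of it open. With the block 1 cell cycle gene was higher and 2 lower, and the lower count was 0 without dexamethasone replicate 3 or LiCl replicate 1 or 3 and 2 without control replicate 2. With the block 1 gene of the metal response was higher too. Pcna, the replication clamp, was at 85.7, 85.6 and 75.6 CPM with dexamethasone and 81.8, 84.2 and 87.3 CPM with LiCl (log2 difference -0.04, 95% interval -0.21 to 0.14). The groups overlapped, and control was at 80.2 ± 5.96 CPM.

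Few of the genes at a like level under both drugs were shown to differ from control. The mean of both drugs was tested against control, a contrast that uses the control libraries but is independent by design of the difference between the drugs. It called 169 genes (1.34%) at 2-fold, 0.778% above control and 0.563% below. Of the 8754 genes at the same level, 483 differed from control at an adjusted p under 0.05 (195 above and 288 below) and 5 (0.0397% of genes tested, 0.0317% above and 0.00794% below) did so by more than 2-fold. Above control were Itga8, the α8 integrin that binds nephronectin, Mgp, an inhibitor of cartilage calcification, Car12, a membrane carbonic anhydrase, and Car8, a carbonic anhydrase relative without enzyme activity. Below was Mmp11, stromelysin-3.

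Itga8 was at 44.6, 39.95 and 45.7 CPM with dexamethasone, 61.3, 40.1 and 46.8 CPM with LiCl and 14.6, 13.5 and 18.7 CPM in control (mean of the drugs against control, log2 difference 1.55, SE 0.13, adjusted p = 5.58e-06). Mgp was at 1014, 998 and 910.5, then 1284, 1029 and 1008, then 493, 563 and 495 CPM in the same order of groups (log2 difference 1.01, SE 0.09, adjusted p = 8.06e-06), and Mmp11 at 10.97, 13.7 and 11.1, then 11.9, 9.96 and 10.4, then 21.1, 26.8 and 21.3 CPM (log2 difference -1.02, SE 0.11, adjusted p = 2.58e-05). For each of these genes the libraries of the drugs overlapped, and all 6 lay on one side of all 3 control libraries. Car12 was at 95.7 ± 28.2, 111 ± 8.13 and 37.6 ± 5.92 CPM (SD, n = 3) and Car8 at 37.2 ± 0.654, 32.4 ± 6.62 and 13.9 ± 3.06 CPM with dexamethasone, LiCl and control (log2 difference 1.45, SE 0.15, adjusted p = 2.91e-05 and log2 difference 1.33, SE 0.13, adjusted p = 2.03e-05). The number of genes that meet all 3 limits was small and depended on single libraries, being 3 without dexamethasone replicate 1, LiCl replicate 1 or LiCl replicate 3 and 8 without control replicate 1, and it was 8 with the replicate block, all 5 of the above among them. None of the 5 was kept with every library left out in turn. Itga8 was lost only without LiCl replicate 2, and Car8 only without LiCl replicate 3. Car12 was lost without dexamethasone replicate 1 or 2 or LiCl replicate 1 or 3. Mmp11 was lost without control replicate 2, dexamethasone replicate 1 or 3 or LiCl replicate 2. Mgp was lost without control replicate 1 or 3, dexamethasone replicate 1 or 2 or LiCl replicate 1, and with no count filter.

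**Figure D5:**
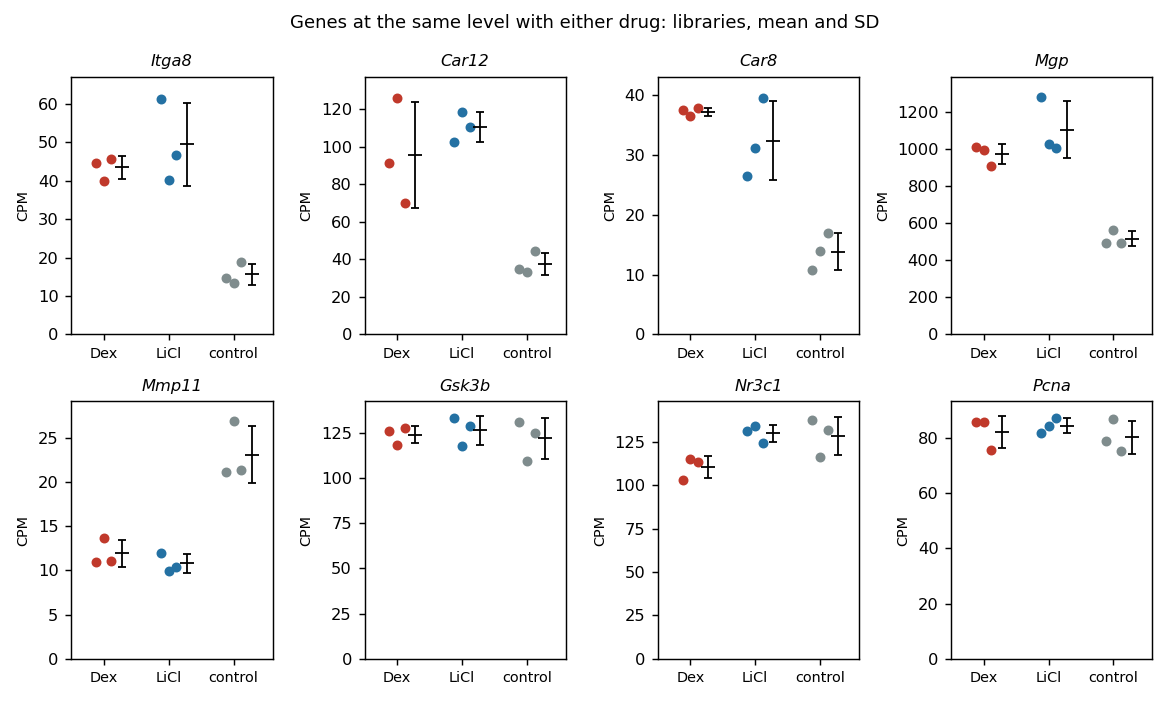
Levels in CPM of the 5 genes at the same level under both drugs and over 2-fold from control, and of Gsk3b, Nr3c1 and Pcna, with a point per library and the mean with its SD (n = 3) for dexamethasone (Dex), LiCl and control; axes start at 0. Points of the drugs overlap for Itga8, Car12, Car8, Mgp and Mmp11 and stand apart from control, while Gsk3b and Pcna are near one level in all groups.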

How the data were processed

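Poly-A RNA from pooled metatarsals was sequenced with a strand-specific kit. The authors deposited 1 file of unnormalized counts a library, for which, per their methods, they aligned reads with Subread, removed duplicates with Picard, counted with HTSeq and merged technical replicates. The submitters' notes name a human build, so no coordinates were taken from the files. Raw counts of all 12 libraries were fitted in 1 model with 4 groups (edgeR 4.0.16, TMM scaling, quasi-likelihood, R 4.3.3), and dexamethasone minus LiCl was tested, two-sided, with Benjamini-Hochberg adjustment over 12602 genes. Shallower dexamethasone libraries give low genes wider error. Intervals of log2 differences are Wald intervals at 95%, and intervals of ratios of counts are exact and cover counting error only. CPM values are TMM-scaled. Figures were drawn with matplotlib 3.10.9.

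Same-numbered dexamethasone and LiCl libraries deviated together from their group means (correlations over genes 0.203, 0.352 and 0.176, against -0.239 to 0.049 for other pairs), so the numbers pair the libraries on the evidence of the data, and a fit with the replicate block was run. Named genes were the 12 largest rises and falls with no overlap and at least 5 CPM, per list up to 4 genes of lowest adjusted p, shared changes against control, and genes the study discusses. Other list members were named after their values were seen. The libraries, genes and 50 lists were chosen with earlier results of these data known. On simulated counts the test recovered 56% of genes changed 1.5-fold and 100% of those changed 2-fold. The changed genes stood above 5 CPM, and recovery was counted without the 2-fold limit. The 100% therefore does not apply to calls at 2-fold, whose recovery was not measured. The same run, with 12419 genes, gave 8 false calls. Alternatives were RLE scaling, DESeq2 1.42.0, other count filters, thinned counts, the drug libraries alone, other fold limits and each library left out. RefSeq GRCr8 gave promoters for 8863 of the genes tested. Some withheld items are not reported here.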

Additional observations from a re-analysis of the deposited data

How the results depend on the processing

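The 481 called genes became 751 with filterByExpr (15274 genes tested), 865 with no count filter (23569 genes), 2038 with no fold minimum and 147 with the 2-fold limit tested as a threshold. They numbered 480 with RLE scaling, 483 with DESeq2, 483 from the drug libraries alone, 374 of 11353 genes at thinned depth, and 457 to 517 with any 1 library left out. With the replicate block 493 were called, 478 of them shared with the fit without it. Of 268 named genes tested 15 passed an adjusted p under 0.05 only with the block and 0 only without it, and list counts that it moved by over 1.5 times stand with their lists. Genes at the same level numbered 8754, 3534 with a narrower limit on the interval, and 8022 to 8999 with any 1 library left out. The 5 genes at the same level and off control became 8 with the replicate block, 483 with no fold minimum (an alternative chosen after seeing the data), and 3 to 8 with any 1 library left out. No named gene reversed direction on a call in any alternative run. List counts of 1 or 2 members moved by 1 or more with single libraries left out in several lists. The 9263078 to 11685463 counts of the dexamethasone libraries limit what can be said of low genes. Recovery of 56% of simulated 1.5-fold changes, in genes above 5 CPM and with no fold minimum, means that smaller differences were often missed. The cause of these shifts was not tested beyond the number of genes or libraries each alternative uses.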
